A study of Mus musculus with 16 samples.

Results

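Macrophages of the pericardial cavity, which float in the fluid around the heart, were compared with macrophages of the heart itself, which sit in its solid tissue. Each population was represented by 4 RNA sequencing libraries, numbered 2 to 5 in the labels, from C57BL/6 mice 8 weeks of age. Both populations were sorted by flow cytometry, pericardial cells from lavage fluid and heart cells from the organ, into TRIzol. No transgene, deletion or treatment is named in the labels, the sources used here give neither the sort gates nor the dissociation of the heart, and nothing says that each library came from its own animal, so the p-values rest on the spread among libraries, which may be technical. All genes with at least 1 RPKM (reads per kilobase of transcript, corrected for library size) in at least 4 of the 8 libraries were taken, which kept 10889 of 24981 genes. Of the 16 libraries of the series, the 8 pleural and peritoneal macrophage libraries served only for the estimate of the spread and for a check of what was particular to the pericardium.

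Resident macrophages take their identity from the tissue they live in. In serous cavities of the mouse the large resident macrophage depends on the transcription factor GATA6, which retinoic acid from the cavity lining sustains, and is known for clotting factors, adhesion molecules and integrins. In the heart, resident macrophages line vessels and lie between cardiomyocytes, and carry the receptors LYVE1 and MRC1. They take up dying cells and debris, and lie alongside macrophages that derive from blood monocytes.

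Alignments ranged from 40886702 to 60450274 in pericardial and from 57029340 to 70166356 in heart libraries, and RPKM totals from 334803 to 482872 and from 227397 to 336952. Summed RPKM of 1492 olfactory, vomeronasal and taste receptor genes, which macrophages do not use, was 133, 81.3, 74.7 and 403 in pericardial libraries 2 to 5 and 496, 515, 238 and 180 in heart libraries 2 to 5. Pericardial library 5 and heart libraries 2 and 3 were the highest of their groups in this sum and the lowest in RPKM total. The part of this background in the results was not tested, but counts without these 3 libraries are given under the processing alternatives.

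The libraries carried the genes that mark their labels. Gata6 stood at 51.8, 35.7, 42.9 and 32.7 RPKM in pericardial libraries 2 to 5 and at 1.58, 0.381, 0.564 and 0.842 RPKM in heart libraries 2 to 5. The log2 fold, pericardial minus heart, was 5.0 ± 0.22 (SE; limma adjusted p = 1.02e-13). Icam2, an adhesion molecule of endothelium and cavity macrophages, was at 517, 590, 610.3 and 436 RPKM against 5.15, 3.61, 5.17 and 6.75 RPKM (6.59 ± 0.20). Every pericardial library lay above every heart library for both. The hyaluronan receptor Lyve1 was at 22.4, 13.2, 8.45 and 6.04 RPKM in pericardial and 167, 193, 261 and 234 RPKM in heart libraries (-4.18 ± 0.36). The mannose receptor Mrc1 was at 8.22, 7.57, 6.66 and 4.69 against 227, 226, 358 and 272 RPKM (-5.22 ± 0.32), again without overlap of the groups. Lyve1 was thus low but present in the pericardial libraries, and highest in pericardial library 2.

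**Figure D1:**
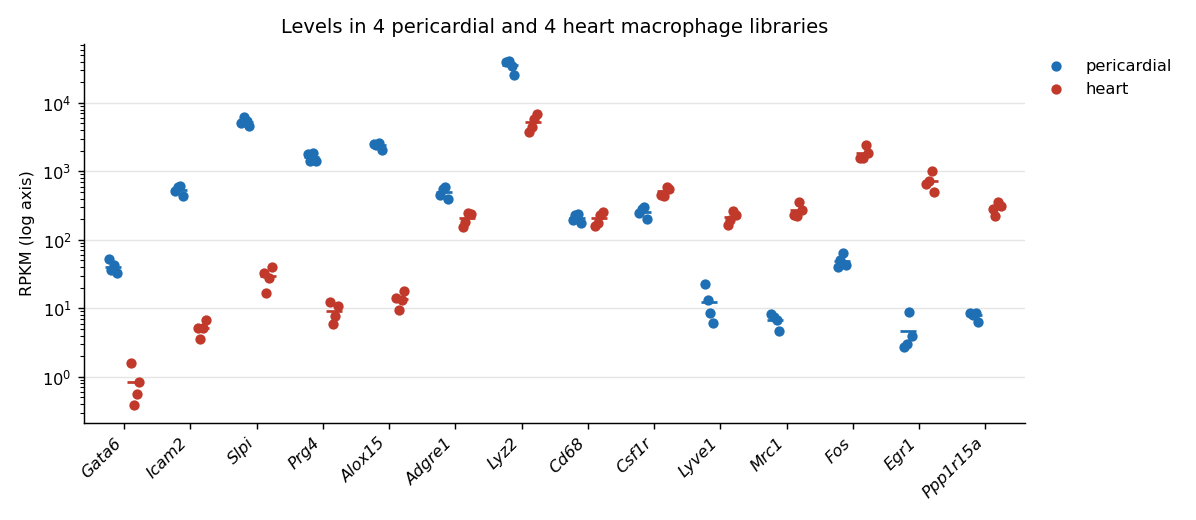
RPKM (log axis) of 14 genes in the 4 pericardial (blue) and 4 heart (red) libraries; each point is 1 library and each bar a mean over 4 libraries. Cavity genes such as Gata6 and Slpi lie higher in every pericardial library, heart macrophage and immediate early genes such as Mrc1 and Fos lie higher in every heart library, and Cd68 overlaps.

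Most genes differed in level between these macrophages. Of 10889 genes tested, 7557 (69.4%) were called by limma at an adjusted p under 0.05 on the deposited scale, 5928 (54.4%) higher and 1629 (15%) lower in pericardial cells. This split moved with the scaling of the libraries: median-ratio scaling gave 4331 higher and 2795 lower, quantile normalization 4436 and 2798, and equal RPKM totals 2648 and 4027, and the median log2 fold over all genes was 0.45 as deposited and 0.13, 0.13 and -0.12 under the other scalings. For this reason "rose" and "fell" are used below for genes called in the same direction under all 4 scalings, which held for 4223 genes (38.8%), 2638 higher (24.2%) and 1585 lower (14.6%). Counts of each gene list below are to be read against these shares. A change is termed strong where it was also at least 4-fold under all 4 scalings. There were 735 strong changes (6.75%), 272 higher (2.5%) and 463 lower (4.25%), with median log2 folds of 3.38 and -2.98. RPKM of the groups did not overlap for 6142 genes (56.4%), 4813 (44.2%) higher and 1329 (12.2%) lower in pericardial cells. A log2 fold here is of RPKM + 0.5 and understates the change of genes of low level.

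**Figure D2:**
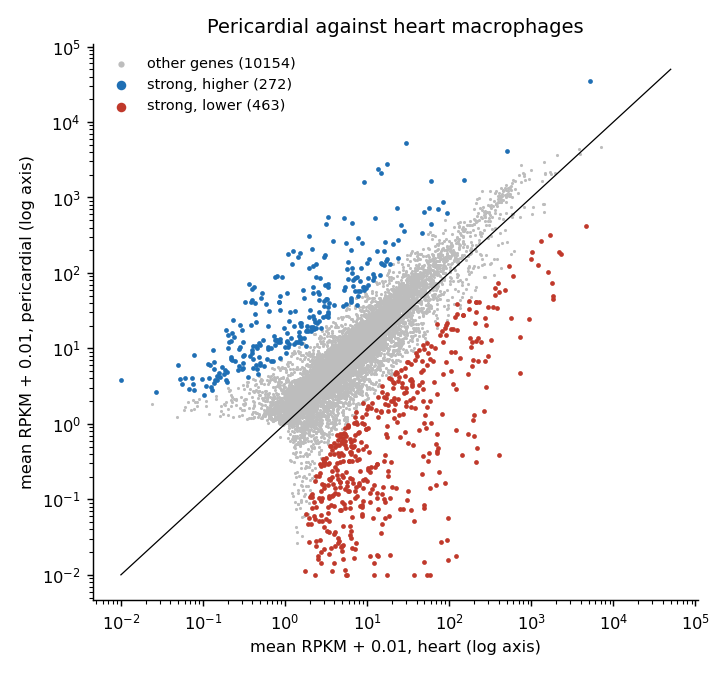
Mean RPKM + 0.01 of 10889 genes in pericardial (vertical) and heart (horizontal) macrophages on log axes, with the line of equal levels; each point is 1 gene. The 272 strong rises (blue) and 463 strong falls (red) lie on either side of the line, and 326 genes were at 1 RPKM or more in all pericardial and no heart library, against 411 in the opposite sense.

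Many of the largest rises, but not all, were of secreted or surface proteins. Slpi, an inhibitor of neutrophil elastase, stood at 5101, 6129, 5415 and 4554 RPKM in pericardial against 33.2, 16.7, 28.1 and 40 RPKM in heart libraries (7.52 ± 0.26, limma adjusted p = 2.26e-15). Lubricin, encoded by Prg4 and known as the lubricant of joints, was at 1791, 1432, 1839 and 1429 against 12.2, 5.95, 7.83 and 10.9 RPKM (7.42 ± 0.23). For the lipoxygenase Alox15 the values were 2492, 2406, 2599.6 and 2046 against 14.2, 9.5, 13.4 and 17.9 RPKM (7.42 ± 0.21). Each of these genes was present in every heart library at a level well below that in the pericardium. Fibronectin (Fn1) was at 2958, 2556, 3323 and 2391 against 20.6, 12.9, 14.6 and 21.7 RPKM (7.31 ± 0.22). The scavenger-type protein CD5L, a secreted inhibitor of apoptosis, was at 573, 571, 612 and 459 against 3.54, 2.58, 3.39 and 3.95 RPKM (7.17 ± 0.18). Saa3, an acute phase apolipoprotein, was at 1361, 3419, 1781 and 1842 against 13, 10.9, 16.6 and 19.1 RPKM (7.04 ± 0.32), with pericardial library 3 highest. The other largest rises were those of Serpinb2, an inhibitor of plasminogen activators (6.96 ± 0.18), Padi4, which converts arginine of histones to citrulline (6.94 ± 0.17), coagulation factor V (F5, 6.85 ± 0.19) and P-selectin (Selp, 6.84 ± 0.17). Exons of Prg4 overlap those of Tpr on the other strand, and how strand was handled is not given in the sources used here.

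Among the largest falls were immediate early genes, chemokines and cardiomyocyte genes. Fosb, a partner of JUN in the AP-1 factor, was at 0.321, 0.332, 0.487 and 0.374 RPKM in pericardial and 369, 429, 589 and 245 RPKM in heart libraries (-8.79 ± 0.19, limma adjusted p = 5.19e-18). Interleukin 1 beta (Il1b) was at 0.214, 0.384, 0.447 and 0.178 against 122, 150.3, 334 and 248 RPKM (-7.95 ± 0.24). Ccl4, an inflammatory chemokine, was at 0.568, 0.542, 0.261 and 0.508 against 138, 166, 298 and 281 RPKM (-7.77 ± 0.25). All 3 were under 1 RPKM in every pericardial library. The ventricular myosin light chain Myl2 was listed at 0 in pericardial libraries 2, 4 and 5 and at 0.03 RPKM in library 3, against 134, 122, 73.8 and 152 RPKM in heart libraries. Myoglobin (Mb) was listed at 0 in 3 pericardial libraries and stood at 114, 98, 61.1 and 116 RPKM in heart libraries. Both are muscle genes, and heart library 4 had the lowest level of each. The chemokines Ccl12 (-7.46 ± 0.19) and Ccl7 (-7.31 ± 0.25), the matrix protein gene Cyr61 (-7.43 ± 0.15), the dendritic cell activation marker Cd83 (-7.28 ± 0.26) and the growth response factor Egr1 (-7.22 ± 0.32) completed the 10 largest falls.

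Promoters of a pair of strong rises and a pair of strong falls show which words of transcription factor sites stand near their starts. The windows run from 250 bases before to 50 bases after the RefSeq start in GRCm38.p6, 5′ to 3′ on the gene's strand, with GATA words (AGATAA, or the same with T as first or G as last letter, on either strand) and the AP-1 word (TGACTCA) in capitals. Slpi and Cd5l were shown as rises, Il1b and the anion carrier gene Slco2b1 as falls, as named genes of the largest change that hold a searched word and whose RefSeq start is also a GENCODE start.
Slpi, chr2:164356458-164356757, minus strand: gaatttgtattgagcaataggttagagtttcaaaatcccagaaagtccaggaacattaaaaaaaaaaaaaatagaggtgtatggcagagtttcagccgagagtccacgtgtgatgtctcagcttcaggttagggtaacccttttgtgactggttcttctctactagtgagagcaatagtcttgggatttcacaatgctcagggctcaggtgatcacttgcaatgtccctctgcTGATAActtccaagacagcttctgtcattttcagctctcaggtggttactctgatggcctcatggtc
Cd5l, chr3:87357631-87357930, plus strand: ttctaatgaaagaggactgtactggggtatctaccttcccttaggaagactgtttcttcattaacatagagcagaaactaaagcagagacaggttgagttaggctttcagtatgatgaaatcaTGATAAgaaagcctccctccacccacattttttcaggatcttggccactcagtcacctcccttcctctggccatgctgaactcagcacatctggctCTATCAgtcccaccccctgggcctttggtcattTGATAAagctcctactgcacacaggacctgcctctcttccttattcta
Il1b, chr2:129371090-129371389, minus strand: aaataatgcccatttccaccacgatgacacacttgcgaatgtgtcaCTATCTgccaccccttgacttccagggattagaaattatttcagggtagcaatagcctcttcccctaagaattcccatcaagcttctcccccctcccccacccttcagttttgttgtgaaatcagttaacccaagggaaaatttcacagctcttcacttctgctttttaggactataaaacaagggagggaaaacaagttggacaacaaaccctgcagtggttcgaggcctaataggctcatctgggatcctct
Slco2b1, chr7:99711291-99711590, minus strand: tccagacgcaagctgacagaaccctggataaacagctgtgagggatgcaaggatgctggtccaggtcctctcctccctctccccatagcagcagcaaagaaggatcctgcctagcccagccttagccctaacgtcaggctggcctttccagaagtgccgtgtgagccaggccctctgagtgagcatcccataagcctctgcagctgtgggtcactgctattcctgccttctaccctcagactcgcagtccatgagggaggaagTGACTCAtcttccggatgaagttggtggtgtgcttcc
The word of Slpi lay 17 bases before the start, Cd5l held 3 GATA words, and the word of Slco2b1 was that of AP-1. Of 8736 tested genes with both annotations, 89.5% had a RefSeq start within 100 bases of a GENCODE start. GATA words were as present beside the falls as beside the rises: 22.1% of the 213 strong rises with a RefSeq promoter held at least 1, 24.1% of the 353 strong falls, and 18.3% of all 8769 tested genes with a promoter. The AP-1 word TGACTCA was in 5.63% of promoters of strong rises, 7.08% of strong falls and 3.44% of all. The CArG box, read by serum response factor, was in 1.88%, 5.1% and 1.38%, and the cyclic AMP word TGACGTCA in 2.35%, 2.83% and 3.38%. All words were searched on both strands, and a match describes the letters of a window and not binding.

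Listed identity genes of the 2 tissues lay mostly on opposite sides. The lists were chosen with earlier results of these data known, so their counts are a description and not a test. Of 28 listed large cavity macrophage genes, all tested, 26 rose and 25 did so strongly, with a median log2 fold of 5.65. Exceptions were Vsig4, a complement receptor, at 71.2, 62.3, 81.6 and 57.4 RPKM against 58.6, 55.3, 78.5 and 103 RPKM (-0.08 ± 0.23, limma adjusted p = 0.76), and the growth factor Hgf, at 2.24, 1.31, 2.5 and 2.17 against 1.53, 1.66, 2.31 and 1.48 RPKM (0.18 ± 0.19, adjusted p = 0.404). The groups overlapped for both, and Vsig4 was called lower with quantile normalization and equal RPKM totals. Of 25 resident cardiac macrophage genes, 19 fell, 15 of them strongly, and 4 rose, with a median of -2.60. Gas6, the ligand of the receptors that recognise dying cells, was at 1.44, 0.736, 0.476 and 0.277 RPKM against 160.1, 156, 193 and 175 RPKM (-7.20 ± 0.31). Hpgd, which breaks down prostaglandins, was at 1.48, 1.17, 1.59 and 0.92 against 149, 145, 256 and 259 RPKM (-6.79 ± 0.20), and the fractalkine receptor Cx3cr1 at 1.1, 0.915, 0.775 and 2.62 against 69.1, 61.7, 107 and 86.9 RPKM (-5.53 ± 0.29). Pericardial library 5 was the highest of its group for Cx3cr1. The 4 cardiac genes that rose were Ltc4s, the leukotriene C4 synthase (2.75 ± 0.19), platelet factor 4 (Pf4, 1.87 ± 0.26), Tppp3 (1.36 ± 0.27) and the adhesion protein gene Ninj1 (1.27 ± 0.21). Of these, Ltc4s was at 676, 678, 650.3 and 521 RPKM in pericardial and 87, 76.4, 92.8 and 122 RPKM in heart libraries.

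Genes shared by macrophages of many tissues did not move as a group. Of 15 listed, 4 rose, 5 fell and 6 did not hold a call under all scalings, with a median of 0.06. The F4/80 gene Adgre1 was at 454, 558, 584 and 401 RPKM against 154, 185, 248 and 235 RPKM (1.29 ± 0.20). Lysozyme (Lyz2) was at 40053, 40598, 34775 and 25776 against 3719.8, 4434, 5763 and 6961 RPKM (2.78 ± 0.26), and the integrin chain Itgam, CD11b, at 739, 762, 781 and 609.8 against 48.6, 56.2, 67.5 and 52.4 RPKM (3.68 ± 0.18). These 3 were higher in every pericardial than in every heart library. By contrast Csf1r, the receptor of the growth factor on which macrophages depend, was at 249.7, 286, 297 and 201 against 448, 432, 599 and 558 RPKM (-0.98 ± 0.19). The cytoskeletal protein gene Aif1 was at 6.17, 7.57, 3.01 and 3.46 against 73.1, 87.1, 101 and 159.8 RPKM (-4.28 ± 0.32) and the Fc receptor Fcgr1 at 8.51, 13.4, 6.55 and 5.76 against 29.1, 42.7, 38.6 and 46.6 RPKM (-2.18 ± 0.33). The scavenger receptor Cd68 was at 196, 228, 235 and 175 against 159, 178, 228 and 255 RPKM (0.04 ± 0.20, limma adjusted p = 0.87), and it was lower with quantile normalization and equal RPKM totals.

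Immediate early factors, which cells transcribe within minutes of a stimulus, were lower in pericardial cells. Of 25 listed, 23 were tested: 20 fell, 19 of them strongly, and 1 rose, with a median of -2.99. Fos was at 40.5, 50.9, 65.2 and 43 RPKM in pericardial against 1543, 1585, 2465 and 1826 RPKM in heart libraries (-5.20 ± 0.25, limma adjusted p = 4.74e-13). Its partner Jun was at 31.1, 23.8, 20 and 22.6 against 894, 853, 1155 and 831 RPKM (-5.24 ± 0.23) and the stress factor Atf3 at 18.3, 14.2, 13.4 and 11.2 against 641, 520.3, 1092 and 645 RPKM (-5.58 ± 0.25). The groups did not overlap for any of them, and heart library 4 was highest for all 3. Egr2, of the Egr1 family, was at 0.486, 0.651, 0.339 and 0.259 against 60.1, 59.2, 100 and 62.8 RPKM (-6.23 ± 0.18). Myc was the member that rose, from 10.7 ± 1.03 RPKM in heart to 21.3 ± 3.72 RPKM in pericardial cells (SD, n = 4 each; 0.95 ± 0.17). Klf2, a factor of quiescent cells, was at 765, 535, 593 and 488 against 506, 476, 789 and 619.5 RPKM (0.00 ± 0.23, adjusted p = 0.994), and it was lower with quantile normalization and equal RPKM totals. Population and harvest coincided, since pericardial cells came by lavage and heart cells from solid tissue. Handling before lysis and population thus cannot be told apart, for these genes or for any other gene of the comparison.

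Feedback regulators that such signals induce were lower as well. Of 35 tested regulators of NF-kB and MAP kinase signalling, 23 fell, 14 strongly, and 1 rose, with a median of -1.87. The stress sensor Gadd45b was at 0.866, 1.12, 0.726 and 0.587 RPKM against 118, 94.9, 165 and 109.7 RPKM (-6.51 ± 0.20), and Nfkbiz, a nuclear inhibitor of NF-kB, at 7.04, 6.29, 7.26 and 6.23 against 189.9, 182, 369.6 and 153 RPKM (-4.87 ± 0.22). The deubiquitinase A20 (Tnfaip3) was at 2.84, 2.95, 2.58 and 2.09 against 34.3, 24.5, 77.6 and 25.5 RPKM (-3.56 ± 0.26), with heart library 4 highest. Gadd45g (-4.59 ± 0.22) and the G protein regulator Rgs1 (-4.00 ± 0.22) were the others of largest fall. The single member that rose was Gadd45a, a paralog of Gadd45b, at 22.5, 16.2, 17 and 15 against 5.09, 4.52, 7.58 and 6.06 RPKM (1.53 ± 0.21). Members of 1 small family thus moved in opposite directions, with no overlap of the groups for any of the 3 Gadd45 genes.

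Among cytosolic heat shock genes, falls outnumbered rises. Of 24 cytosolic members, all tested, 14 fell, 9 strongly, and none rose, with a median of -0.83. The inducible chaperone Hspa1a was at 82.8, 35.3, 23.2 and 41.7 RPKM in pericardial against 1929.6, 1614, 1901 and 1892 RPKM in heart libraries (-5.46 ± 0.35). Hspa1b, near-identical to it so that reads may be split between them, was at 137, 55.9, 32.5 and 65.1 against 1899.9, 1614, 1782 and 1940.2 RPKM (-4.82 ± 0.47). Pericardial library 2 was the highest of its group for both. The small heat shock protein Hspb1 was at 14.9, 16.5, 8.01 and 8.57 against 187, 148, 156 and 275 RPKM (-3.97 ± 0.41), and Cryab, a small heat shock protein of muscle and lens whose exons overlap those of Hspb2, at 0.282, 0.324, 0.234 and 0.293 against 16.4, 14.9, 6.96 and 14.4 RPKM (-4.06 ± 0.19). Hspa4 (0.81 ± 0.17), Hsf2 (0.79 ± 0.14) and Dnaja4 (0.83 ± 0.18), a co-factor of Hsp70, a heat shock transcription factor and a J-domain protein, were called higher on the deposited scale, but none of them under all scalings. The unfolded protein response, which acts in the endoplasmic reticulum, showed another pattern: 16 of 24 tested members rose, none strongly, and 3 fell. The chaperone partner Sdf2l1 (2.02 ± 0.23), the sensor kinase Ern1 (1.91 ± 0.17), the disulfide isomerase Pdia6 (1.66 ± 0.21) and Creld2 (1.57 ± 0.26) rose most. Those that fell were Ppp1r15a, Ddit3 (-1.63 ± 0.18) and Atf4 (-1.15 ± 0.19). Ppp1r15a encodes a regulatory subunit for dephosphorylation of the translation factor eIF2. It was at 8.68, 8.05, 8.68 and 6.28 against 286, 224, 355 and 311 RPKM (-5.12 ± 0.18), and its exons overlap those of Tulp2.

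**Figure D3:**
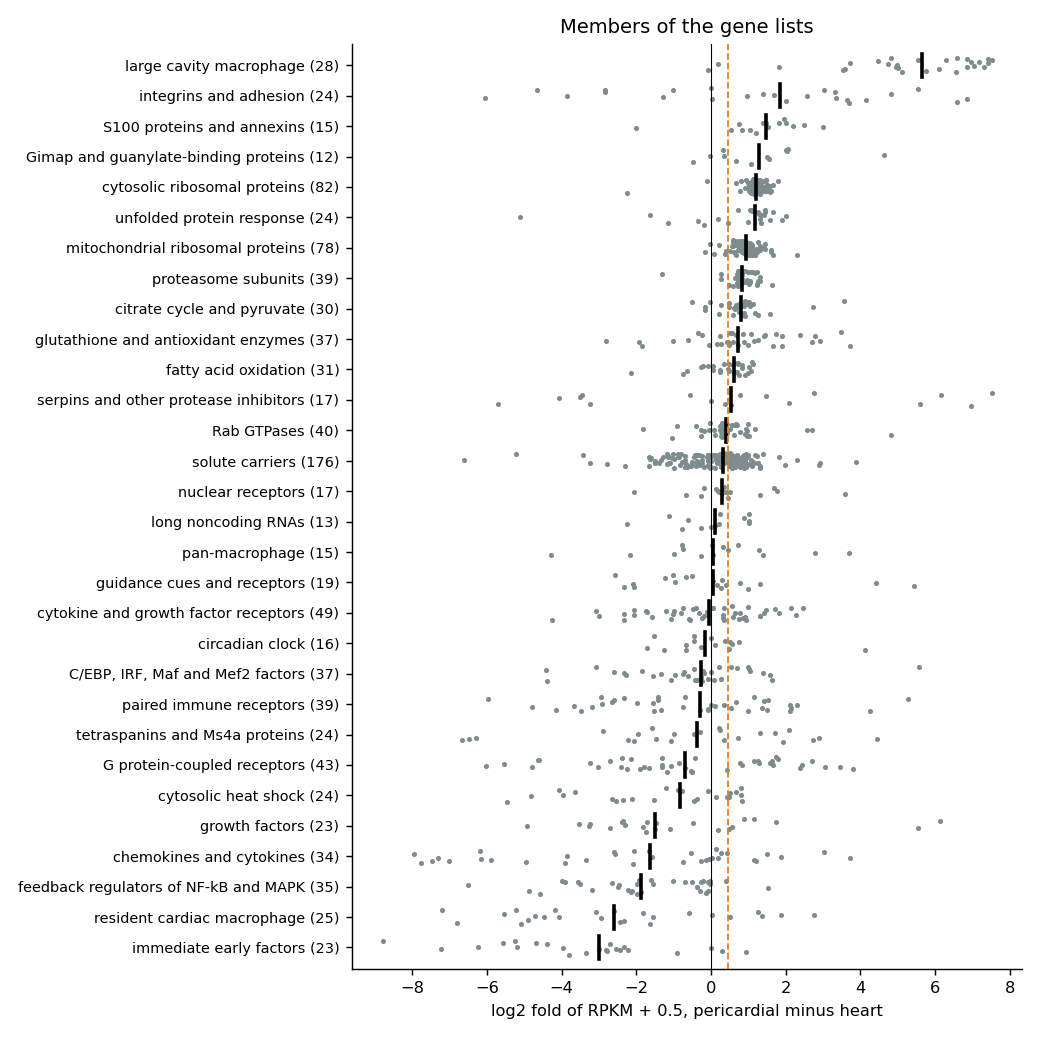
Log2 folds of RPKM + 0.5, pericardial minus heart, of the tested members of 30 gene lists (number of members in brackets); each grey point is 1 gene, black bars are list medians, and the dashed line is the median of all 10889 genes at 0.45. Medians run from -2.99 for immediate early factors to 5.65 for large cavity macrophage genes.

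Listed transcription factors of several families fell more often than they rose. Of 37 tested C/EBP, IRF, Maf, Mef2 and related factors, 16 fell, 6 strongly, and 5 rose, 1 strongly. Spic, which directs the macrophages that recycle haem, was at 0.182, 0.0314, 0.136 and 0.0947 RPKM against 9.87, 7.87, 17.5 and 17.4 RPKM (-4.41 ± 0.21). Maff, also listed among the immediate early factors, was at 0.0889, 0.146, 0.0885 and 0.0554 against 12.5, 8.65, 23 and 7.96 RPKM (-4.39 ± 0.22). Maf, a factor of mature resident macrophages, was at 19.2, 20.9, 16.6 and 15.2 against 93.1, 106, 127 and 120.3 RPKM (-2.60 ± 0.16). Id3, an inhibitor of helix-loop-helix factors, fell by 3.09 ± 0.25, whereas its paralog Id2 rose by 1.40 ± 0.20. Nfe2, known as a factor of erythroid cells and megakaryocytes, was the strong rise of the list, at 40.5, 43.2, 46.7 and 34.3 against 0.482, 0.31, 0.275 and 0.413 RPKM (5.58 ± 0.16). Irf2 (1.64 ± 0.20) and Cebpb (1.59 ± 0.25) also rose. Cebpb, a factor of myeloid cells, was at 1024, 721, 708 and 477 RPKM in pericardial libraries, where library 2 was highest, and at 190.2, 212, 253 and 298 RPKM in heart libraries.

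Of 17 nuclear receptors tested, 4 rose and 2 fell, which is near the 24.2% and 14.6% of all genes. The 4 were receptors of retinoic acid and their partner. Rarb, itself a known target of retinoic acid, was at 10.7, 11, 11.2 and 9.36 RPKM against 0.533, 0.597, 0.227 and 0.39 RPKM (3.58 ± 0.16). Rarg was at 40.2, 36.1, 42.8 and 30.6 against 10, 10, 11.8 and 10.6 RPKM (1.76 ± 0.16), Rara at 21.5, 16.7, 18.2 and 14.9 against 4.56, 6.18, 4.95 and 5.05 RPKM (1.69 ± 0.20), and their partner Rxra at 29.6, 24.5, 28.6 and 21.3 against 9.31, 10.6, 9.99 and 10.6 RPKM (1.31 ± 0.17). The groups did not overlap for any of these 4. Pparg, the receptor of fatty acid derivatives that governs fat storage, fell from 2.95 ± 0.773 RPKM in heart to 0.308 ± 0.084 RPKM in pericardial cells (SD, n = 4 each; -2.07 ± 0.20). Clock genes were tested as 16 of 20 listed: 6 fell, none strongly, and 1 rose. Bhlhe40, a repressor of the clock that also limits cytokine genes, was at 50.5, 56.4, 61.1 and 40.4 against 3.56, 2.47, 2.68 and 1.66 RPKM (4.11 ± 0.20). Ciart (-1.70 ± 0.17), Dbp (-1.52 ± 0.24) and Per1 (-1.27 ± 0.32) fell, and the hour at which mice were killed is not given in the sources used here. Exons of Dbp overlap those of Sphk2.

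Cytokine and growth factor receptors moved both ways. Of 49 tested, 20 fell, 7 strongly, and 12 rose, none strongly. Acvrl1, a receptor of bone morphogenetic proteins, was at 0.503, 0.32, 0.455 and 0.247 RPKM against 14.1, 14.9, 16.7 and 19.9 RPKM (-4.26 ± 0.16). Axl, a receptor of Gas6, was at 5.7, 5.72, 5.82 and 3.73 against 41, 40.3, 54.3 and 56.5 RPKM (-3.08 ± 0.22), so that ligand and receptor were both lower in pericardial cells. The interleukin 21 receptor Il21r (-2.99 ± 0.18) and the neuropilin Nrp2 (-2.33 ± 0.16) fell as well. Rises were led by Il27ra, a receptor of interleukin 27, at 9.04, 9.53, 11.5 and 7.38 against 1.22, 1.16, 1.28 and 1.5 RPKM (2.45 ± 0.16). The death receptor Fas (2.27 ± 0.17), the interleukin 15 receptor chain Il15ra (2.13 ± 0.24) and Csf3r, the receptor of the granulocyte growth factor (1.83 ± 0.14), followed. Csf3r was at 42.6, 42.5, 41.1 and 41.2 RPKM in pericardial and 11.7, 13, 10.9 and 10.3 RPKM in heart libraries.

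Among G protein-coupled receptors, 43 were tested, of which 23 fell, 12 strongly, and 14 rose, 4 strongly. Gpr34, a receptor of lysophosphatidylserine, was at 0.182, 0.262, 0.257 and 0.114 RPKM against 34.7, 34.7, 67.3 and 49.4 RPKM (-6.01 ± 0.18). Cxcr4, the receptor of the chemokine CXCL12, was at 2.4, 3.78, 4.35 and 3.08 against 77.3, 77.4, 154 and 132 RPKM (-4.78 ± 0.22), while its ligand Cxcl12 rose, at 3.68, 4.2, 4.3 and 3.11 against 1.34, 1.06, 0.983 and 0.744 RPKM (1.5 ± 0.16). Ackr3, a scavenging receptor of the same chemokine, was at 8.22, 11, 15.8 and 8.7 against 5.06, 1.11, 0.567 and 0.398 RPKM (2.70 ± 0.41). Heart library 2 was the highest of its group for Ackr3. Nucleotide receptors differed from each other: P2ry13, which binds ADP, was at 0.251, 0.465, 0.205 and 0.285 against 16, 14.8, 26.7 and 20.9 RPKM (-4.62 ± 0.17), and P2ry2, which binds ATP and UTP, at 11, 9.61, 12 and 8.97 against 0.317, 0.221, 0.222 and 0.326 RPKM (3.81 ± 0.15). The prostacyclin receptor Ptgir (3.45 ± 0.18) and the lysophosphatidic acid receptor Lpar5 (3.06 ± 0.21) rose strongly.

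Paired immune receptors and C-type lectins were 39 tested, with 19 falls, 11 of them strong, and 12 rises, 2 of them strong. The strong rises were neighbours in function: Clec4d, at 267, 359, 318 and 230 RPKM against 3.41, 7.8, 7.86 and 11.5 RPKM (5.26 ± 0.26), and Clec4e, at 54.2, 67.5, 54.5 and 44.7 against 2.52, 1.55, 4.27 and 1.8 RPKM (4.26 ± 0.22), both receptors of mycobacterial glycolipid. Pilrb1 (2.30 ± 0.21) and Pilra (2.14 ± 0.19), an activating and an inhibitory receptor of 1 pair, rose together. On the other side, the leukocyte receptor Lilra5 was at 0.465, 0.481, 0.34 and 0.318 against 39.5, 51.3, 65 and 71.2 RPKM (-5.96 ± 0.16) and the inhibitory lectin Clec12a at 1.21, 1.85, 1.38 and 0.841 against 41.2, 36.9, 63.7 and 59 RPKM (-4.79 ± 0.20). Clec4n, which is dectin-2 and binds fungal mannan, was at 1.51, 1.58, 1.66 and 1.6 against 24.6, 37.5, 44 and 45 RPKM (-4.16 ± 0.22). Havcr2, known as TIM-3, was under 0.1 RPKM in every pericardial library and at 5.15, 5.57, 6.78 and 7.61 RPKM in heart libraries (-3.67 ± 0.14). Lectins of the Clec4 family thus lay on both sides.

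Membrane-spanning 4A and tetraspanin genes also separated within their families. Of 24 tested, 12 fell, 6 strongly, and 7 rose, 3 strongly. Ms4a4a was at 0.29, 0.339, 0.173 and 0.0722 RPKM against 43.7, 76.9, 84.5 and 91.5 RPKM (-6.66 ± 0.19), Ms4a7 at 0.0672, 0.197, 0.117 and 0.14 against 37.7, 48.9, 63 and 83.9 RPKM (-6.49 ± 0.19) and Ms4a6b at 0.599, 0.412, 0.345 and 0.249 against 48.2, 70.7, 75.1 and 93.5 RPKM (-6.30 ± 0.24). For all 3 the pericardial libraries were under 1 RPKM. Ms4a8a, of the same family, was at 105, 168, 165 and 116 against 5.53, 6.03, 6.04 and 5.54 RPKM (4.44 ± 0.21). Reads of Ms4a paralogs may be shared, and the counting of reads with several hits is not given in the sources used here. The tetraspanins Cd9, at 336, 335, 386 and 291 against 44.5, 29, 50.5 and 61.6 RPKM (2.89 ± 0.21), and Tspan32 (2.73 ± 0.19) rose strongly, and Cd37 rose by 2.09 ± 0.18.

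Adhesion genes were a family in which strong rises outnumbered strong falls: 24 of 40 listed were tested, 15 rose, 10 strongly, and 7 fell, 5 strongly. Beside Icam2 and Selp, the laminin-binding integrin chain Itga6 was at 287, 232, 278 and 209 RPKM against 7, 6.41, 11.8 and 8.99 RPKM (4.83 ± 0.20). Cd24a, a mucin-like ligand of P-selectin, was at 129, 119, 179 and 105 against 3.09, 2.3, 2.03 and 1.97 RPKM (5.54 ± 0.20), and Itgb7, an integrin chain of gut homing cells, at 67.7, 81.1, 62.2 and 52.8 against 3.6, 4.58, 2.17 and 2.87 RPKM (4.15 ± 0.27). For none of these did the groups overlap. Itgb5, a chain of the vitronectin receptor that takes part in uptake of dying cells, was at 0.519, 0.618, 0.455 and 0.547 against 59.4, 62.1, 69.6 and 83 RPKM (-6.05 ± 0.16). Vcam1 was at 0.144, 0.0468, 0.0507 and 0.19 against 10.7, 15.5, 13.6 and 21.4 RPKM (-4.66 ± 0.18), and the junction protein F11r (-3.85 ± 0.21) and the integrin chain Itgax, CD11c (-2.85 ± 0.15), fell as well.

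Most chemokines and cytokines were lower in pericardial cells. Of 34 tested, 20 fell, 16 strongly, and 4 rose, 2 strongly, with a median of -1.62. The B cell chemokine Cxcl13 was at 266, 423, 517 and 249.9 RPKM against 15.6, 22.9, 30.2 and 43.1 RPKM (3.71 ± 0.31). Tnfsf13, which encodes the B cell survival factor APRIL, was at 75.5, 95.6, 99.6 and 75.6 against 7.73, 9.95, 9.96 and 13.7 RPKM (3.02 ± 0.18), and its exons overlap those of the readthrough gene Tnfsfm13. Both strong rises thus encode factors known to act on B cells. Growth factors gave 15 falls, 8 strong, and 4 rises, 2 strong, among 23 tested. Wnt2 was at 63.4, 60, 74.3 and 49.7 against 0.483, 0.218, 0.435 and 0.424 RPKM (6.13 ± 0.19), and Tgfb2, a transforming growth factor, at 59.3, 35.6, 52.8 and 40.3 against 0.633, 0.458, 0.531 and 0.399 RPKM (5.54 ± 0.21). The platelet-derived growth factors went the other way, with Pdgfc at 0.00806, 0.0889, 0.0321 and 0.134 against 4.6, 6.13, 8.05 and 5.94 RPKM (-3.54 ± 0.15) and Pdgfb at 2.03, 1.97, 1.73 and 1.48 against 17.7, 20.7, 24.5 and 23.5 RPKM (-3.26 ± 0.18). The galectins were divided, as Lgals1 fell by 3.24 ± 0.22 and Lgals3 rose by 1.16 ± 0.20. Igfbp7, which binds insulin-like growth factors, was the largest fall at 50.8, 10.5, 12.1 and 17 RPKM in heart libraries and under 0.3 RPKM in every pericardial library. Heart library 2, which had the highest fibroblast marker sum, was also highest for Igfbp7.

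Protease inhibitors moved both ways. Of 17 tested, 7 rose, 5 strongly, and 6 fell, 5 strongly. Clade B serpins, most of which act inside cells, rose beside Slpi: Serpinb10 was at 89.6, 105, 105 and 68.5 RPKM against 0.771, 0.628, 0.748 and 0.983 RPKM (6.16 ± 0.19), and Serpinb1a, an inhibitor of neutrophil proteases, at 185, 167, 187 and 143 against 3, 2.44, 3 and 3.76 RPKM (5.59 ± 0.20). Serpins of other clades fell, with Serpinf1, an inhibitor of vessel growth, at 0.0193, 0.106, 0.0384 and 0.192 against 36.4, 19.1, 26.6 and 41.6 RPKM (-5.69 ± 0.19). Serping1, the C1 inhibitor, was at 0.222, 0.131, 0.0789 and 0.145 against 25.8, 7.93, 7.35 and 7.54 RPKM (-4.08 ± 0.27), and the collagen chaperone Serpinh1 at 0.177, 0.146, 0.0822 and 0.176 against 17.3, 5.9, 3.79 and 4.74 RPKM (-3.46 ± 0.28). Heart library 2 was highest for Serping1 and Serpinh1, as it was for fibroblast markers.

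S100 proteins and annexins, small and large calcium-binding proteins, mostly rose: 11 of 15 tested rose, 1 strongly, and 1 fell. Of the S100 proteins, S100a4 was at 464, 576, 585 and 364 RPKM against 79.4, 68.6, 90.7 and 117 RPKM (2.48 ± 0.22), S100a1 at 155, 208, 212 and 141 against 34.7, 35.3, 43.9 and 65.1 RPKM (2.01 ± 0.22), and the granulocyte protein S100a8 at 3.97, 5.53, 6.45 and 2.81 against 0.254, 0, 0.336 and 0 RPKM (2.99 ± 0.25). Anxa1, which mediates resolution of inflammation, was at 288, 321, 304 and 200.1 against 53.1, 43.8, 85.4 and 61.7 RPKM (2.20 ± 0.22). The member that fell was Anxa5, which binds phosphatidylserine, at 40, 51.9, 46.5 and 30.8 against 145, 135, 191 and 220.4 RPKM (-2.02 ± 0.23). The groups did not overlap for any of these 5.

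Among antioxidant enzymes, 17 of 37 tested rose, 5 strongly, and 5 fell, 1 strongly, with a median of 0.73 as deposited and 0.10 at equal RPKM totals. Gsr, which regenerates glutathione, was at 63.6, 71, 78.8 and 49.2 RPKM against 4.8, 4.66, 6.28 and 5.84 RPKM (3.48 ± 0.18), and the microsomal glutathione transferase Mgst1 at 77.9, 95, 101 and 61.8 against 5.09, 4.82, 5.87 and 7.77 RPKM (3.72 ± 0.19). The peroxiredoxins Prdx5, whose exons overlap those of Trmt112, and Prdx6 rose by 2.92 ± 0.22 and 2.79 ± 0.21. Hmox1, which breaks down haem, was at 59.1, 65.9, 54 and 47.7 against 382, 326, 510.3 and 408 RPKM (-2.82 ± 0.20). Gpx3, a plasma glutathione peroxidase (-1.85 ± 0.19), Gstm2 (-1.92 ± 0.16) and Gstt1 (-1.01 ± 0.22) fell by less.

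Enzymes of central metabolism gave smaller differences, and their direction rested more on the scaling. In the citrate cycle and pyruvate list 15 of 30 rose and none fell. ATP citrate lyase (Acly), which makes acetyl-CoA for lipid synthesis, was at 206, 196, 221 and 160.1 RPKM against 14.3, 14.5, 17.8 and 17.9 RPKM (3.56 ± 0.19), and the cytosolic isocitrate dehydrogenase Idh1 at 156, 173, 188 and 118 against 20.8, 18.6, 31.4 and 24.4 RPKM (2.72 ± 0.19). These were the strong rises of the list, followed by the malic enzymes Me2 (1.57 ± 0.16) and Me1 (1.27 ± 0.20). At equal RPKM totals, 15 of the 30 were called higher and 5 lower. Fatty acid oxidation genes were called higher for 20 of 31 and lower for 3 as deposited, but higher for 7 and lower for 10 at equal RPKM totals, so that no direction of the group can be given. Among them Acsl3, which activates fatty acids, fell from 5.76 ± 1.13 RPKM in heart to 0.903 ± 0.151 RPKM in pericardial cells (SD, n = 4 each; -2.15 ± 0.15), and the electron carrier chain Etfb rose by 1.12 ± 0.20.

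Most ribosomal protein genes rose, by a small amount. Of 82 cytosolic ribosomal protein genes tested, 71 rose, none strongly, and 1 fell, with a median of 1.20 as deposited and of 0.57 at equal RPKM totals. Rps19 was at 556, 864, 826 and 533 RPKM against 163, 162, 207 and 272 RPKM (1.78 ± 0.22) and Rpl22l1 at 174, 204, 188 and 118 against 40.5, 39.7, 63.4 and 76.6 RPKM (1.66 ± 0.24). The gene that fell was Rpl3l, a form of striated muscle, at 2.3, 2.19, 1.28 and 2.57 RPKM in heart libraries and under 0.1 RPKM in every pericardial library. Of 78 mitochondrial ribosomal protein genes, 47 rose and none fell, led by Mrpl33 (2.31 ± 0.24), and of 39 proteasome subunits 21 rose and none fell, led by Psma7 (1.62 ± 0.22). Their medians were 0.94 and 0.84 as deposited and 0.33 and 0.22 at equal RPKM totals, against 0.45 and -0.12 for all genes.

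**Figure D4:**
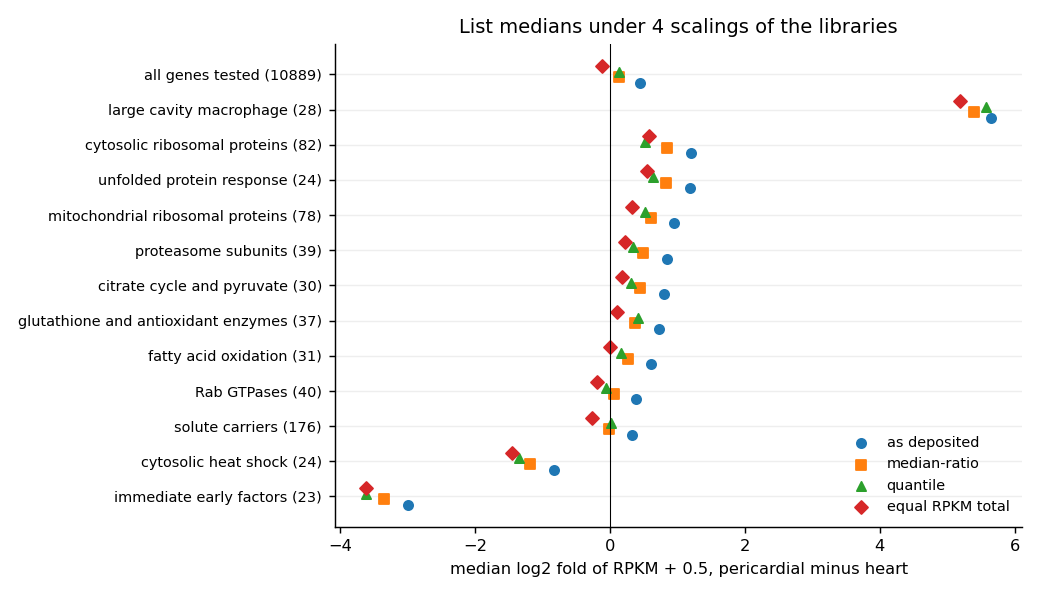
Median log2 folds, pericardial minus heart, of 12 lists and of all genes tested (number of genes in brackets) under 4 scalings of the libraries, marked by symbol. The medians of solute carriers and Rab GTPases cross 0 with the scaling, while those of cavity, ribosomal, heat shock and immediate early genes keep their side.

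Among genes of actin-binding proteins, those named here lay on both sides. Gsn, which severs actin filaments and is also abundant in fibroblasts, was at 1.11, 1.49, 1.16 and 0.727 RPKM against 407, 123, 113 and 146 RPKM (-6.73 ± 0.28), with heart library 2 far above the rest. The leukocyte coronin Coro1a was at 38.7, 38, 34.5 and 21.8 against 141, 154, 164 and 240.1 RPKM (-2.38 ± 0.24). Rises were of the bundling protein fascin (Fscn1, 2.06 ± 0.26), of Capg (1.79 ± 0.21) and of talin (Tln1, 1.78 ± 0.17), at 177, 142, 162 and 135 against 41.2, 46.4, 47.1 and 42.8 RPKM.

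Transporters of the solute carrier families were tested for 176 of 389 members. They were called higher for 86 and lower for 42 as deposited and higher for 32 and lower for 84 at equal RPKM totals, while 32 rose and 40 fell under all scalings, 3 and 6 of them strongly. Slco2b1, a carrier of organic anions and steroid sulfates, was listed at 0 in pericardial libraries 2, 3 and 4 and at 0.0192 RPKM in library 5, against 38.5, 45.1, 69 and 46.2 RPKM in heart libraries. Ferroportin (Slc40a1), the exporter of iron, was under 0.03 RPKM in every pericardial library and at 15.9, 14.6, 21.9 and 23.4 RPKM in heart libraries (-5.23 ± 0.15). The urea transporter Slc14a1 (-3.43 ± 0.17) and the proton exchanger Slc9a9 (-3.24 ± 0.18) fell as well. Among rises, the sugar carrier Slc2a6 was at 38, 54.5, 50.3 and 34.9 against 1.77, 3.6, 2.03 and 2.99 RPKM (3.88 ± 0.21) and the cationic amino acid carrier Slc7a2 at 11, 11.6, 12.3 and 10.3 against 1.48, 1.18, 0.892 and 0.872 RPKM (2.89 ± 0.15). Slc9a3r2, a scaffold of such proteins, rose by 2.93 ± 0.19, and the lactate carrier Slc16a3 by 2.29 ± 0.18.

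Markers of other cells moved with the comparison. Summed RPKM of 15 cardiomyocyte markers was 17.9, 14.2, 16.3 and 13.6 in pericardial and 791, 669.5, 381 and 781 in heart libraries (exact permutation test, two-sided, p = 0.0286, adjusted p = 0.0381 over 12 lists), with 14 of 15 higher in every heart than in every pericardial library. The exception was Ryr2, the calcium release channel, at 2.36, 1.69, 1.89 and 1.75 against 0.719, 0.4, 0.251 and 0.276 RPKM (1.43 ± 0.16). Summed RPKM of 10 fibroblast markers was 1.94, 1.82, 1.6 and 1.52 in pericardial libraries 2 to 5, against 708 in heart library 2 and 189 to 234 in the other heart libraries (exact p = 0.0286), with all 10 higher in every heart library and 9 under 1 RPKM in every pericardial library. Decorin (Dcn) was at 146, 34.7, 41.7 and 49.9 RPKM in heart libraries, and heart library 2 was highest. With 4 libraries against 4, 0.0286 is the smallest p that this test can give. Fewer cells of a type and less RNA per cell cannot be told apart in bulk libraries. The part of these cells in the falls above, such as those of Myl2, Mb, Cryab, Rpl3l, Igfbp7, Gsn, Serpinf1, Serping1 and Serpinh1, was not tested.

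Blood cell markers differed in both directions. Sums of B cell markers were 77.2, 50.3, 45.1 and 25.5 RPKM over 8 markers in pericardial and 14.5, 10.6, 7.7 and 8.97 RPKM in heart libraries (exact p = 0.0286), with Cd79a, a chain of the B cell receptor, at 29.9, 19.6, 17.8 and 10.6 against 4.58, 2.7, 0.416 and 0.511 RPKM (3.25 ± 0.46). Dendritic cell markers summed to 17.2 to 22.1 RPKM in pericardial and 41.1 to 60.5 in heart libraries, T and NK cell markers to 1.3 to 2.28 and 5.56 to 8.96, and monocyte markers to 202 to 294 and 390.3 to 553 (each exact p = 0.0286). Of 9 T and NK cell markers, 6 were under 1 RPKM in every heart library, and Cd4 alone passed the filter on level. The monocyte list was mixed, with 4 of 8 markers higher in every pericardial library, among them haptoglobin (Hp, 6.17 ± 0.16) and Chil3 (4.63 ± 0.44), and 2 in every heart library. F13a1, the monocyte marker of largest fall, was also listed among the resident cardiac macrophage genes. Neutrophil (exact p = 0.0571), erythroid (0.657) and mesothelial sums (0.914) did not pass. Endothelial markers summed to 437 to 599 RPKM in pericardial and 15.7 to 37.7 RPKM in heart libraries (exact p = 0.0286), but most of the pericardial sum was Fabp4, a fatty acid binding protein also made by macrophages, at 549, 585, 551 and 423 RPKM. Of the 10 endothelial markers, 7 were higher in every heart library. The water channel Aqp1, for example, was at 0.125, 0.0721, 0.166 and 0.191 RPKM in pericardial against 7.8, 5.5, 4.67 and 4.63 RPKM in heart libraries (-3.24 ± 0.16). Mural cell markers summed to 0.97 to 1.58 against 6.53 to 20.2 RPKM and mast cell markers to 12.5 to 19 against 0.576 to 11.8 RPKM (each exact p = 0.0286), but of 7 mast cell markers 6 were under 1 RPKM in every pericardial library, and the sum there was nearly all Hdc, the histamine-forming enzyme (4.50 ± 0.19).

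**Figure D5:**
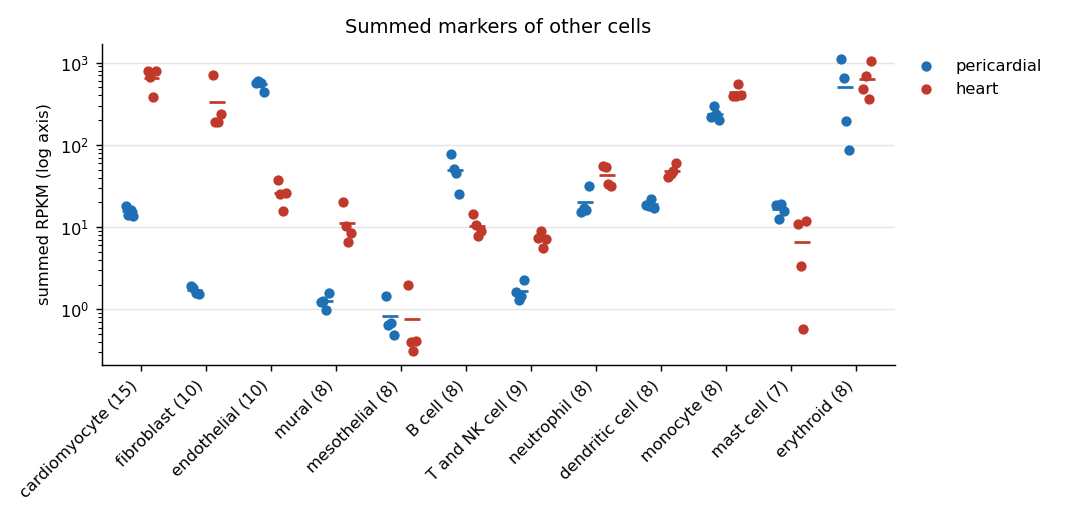
Summed RPKM (log axis) of markers of 12 other cell types (number of markers in brackets) in the 4 pericardial (blue) and 4 heart (red) libraries; each point is 1 library and each bar a mean over 4 libraries. Cardiomyocyte, fibroblast and mural sums lie higher in every heart library, B cell and endothelial sums in every pericardial library, and mesothelial and erythroid sums overlap.

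Transcripts of 1 gene rarely moved in opposite directions. The authors' deposited table gives signed folds and q-values for 42551 transcripts, of which 1280 were higher in heart and 1106 in pericardial cells at a q under 0.05 and a fold of at least 4. Among 352 genes with at least 2 such transcripts, 5 had them in both directions in the authors' deposited table, Tpm1, Ptpre, Spc24, Hopx and Mlf1. Tropomyosin 1 (Tpm1), which has forms of striated muscle and of other cells, had 10 transcripts there, 5 higher in heart, by up to 704-fold, and 3 higher in pericardial cells, by up to 51.1-fold in the authors' deposited table. At the level of the gene it was at 10.6, 8.37, 9.75 and 7.96 RPKM in pericardial and 43.3, 37.9, 23.2 and 42.1 RPKM in heart libraries (-1.91 ± 0.20), which does not show the 2 directions. For the phosphatase Ptpre, 1 of 5 transcripts was higher in heart, by 5.49-fold, and 2 in pericardial cells, by 39.3-fold and 12-fold, in the authors' deposited table. Its gene-level log2 fold was 0.63 ± 0.18, a call that did not hold under the other scalings. RPKM of transcripts that share exons rest on how reads were assigned, which is not given in the sources used here.

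Finally, it was asked whether any difference from the heart was particular to the pericardial cavity. Pericardial cells were set against heart, pleural and peritoneal cells by limma, and the least favourable of the 3 p-values was kept for genes whose folds had a single sign. This intersection-union test called 0 of 10889 genes at an adjusted p under 0.05, with a smallest adjusted p of 0.532. Only 5541 genes had folds of a single sign, while the adjustment counted all 10889. A gene at a level between heart and the other cavities, such as Fos below, could not be called by it. At an unadjusted p under 0.05 there were 15 genes, 4 higher and 11 lower. These comparisons share the pericardial libraries. Pericardial and pleural cells differed for 2 genes and pericardial and peritoneal cells for 99 by limma. Fos, 1 of the 2, lay between: it was at 40.5, 50.9, 65.2 and 43 RPKM in pericardial, 14.1, 12.6, 13 and 12.3 RPKM in pleural, and 5.95, 8.28, 2.57 and 7.39 RPKM in peritoneal libraries 2 to 5. The log2 fold, pericardial minus pleural, was 1.87 ± 0.25 (limma adjusted p = 0.00466), and pericardial minus peritoneal it was 3.02 ± 0.25 (9.8e-07). Wnt2, in contrast, was alike in its range in the cavities, at 63.4, 60, 74.3 and 49.7 RPKM in pericardial, 61.5, 41.6, 82.6 and 48 RPKM in pleural and 66.1, 59.8, 49.4 and 54.8 RPKM in peritoneal libraries. Fos was not alone in its direction. Hspa1a (2.91 ± 0.35, limma adjusted p = 5.35e-05) and Jun (1.74 ± 0.23, 0.000189) were also higher in pericardial than in peritoneal cells. Neither was called against pleural cells, and Fosb, Egr1 and Atf3 were not called against either cavity.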

How the data were processed

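Per the labels, RNA came from sorted cells by Direct-zol, and the library kit was NEBNext Ultra II. Per the submitters' processing notes, bcl2fastq 2.17.1, TopHat2 2.1.1 and Partek 7.18.0723 were used with mm10. The authors deposited RPKM per gene and library, and which read total and annotation served is not given in the sources used here. Their count of alignments per library was deposited as well. Per the file headers, a table of transcripts holds, by analysis of variance, p-values and q-values beside log2 means, ratios and signed folds (a score). No value column was without a sample.

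From the RPKM, log2(RPKM + 0.5) was fitted with limma 3.58.1 in R 4.3.3 (trended variance, two-sided moderated test, 16 libraries, 1 mean per group, 12 residual degrees of freedom), with Benjamini-Hochberg adjustment over 10889 genes. Counts were not used, since RPKM carry no depth per gene, and precision is given by the spread of 4 libraries. Errors are SE for log2 folds and SD for means. Lists were described by counts and medians beside all genes, with no test. The members and lists were chosen with earlier results of these data known. Named genes were, by rule, the 10 largest strong rises and falls without overlap (predicted genes and small RNAs left out), up to 4 called members of largest change per list and direction, and Gata6, Icam2, Lyve1, Mrc1, Adgre1, Csf1r and Lyz2. Not every gene it gave is printed, and Vsig4, Hgf, Cd68, Klf2, Cxcl12's comparison with its receptors, and genes that completed a family were added after values were seen. Promoters were matched by symbol to RefSeq, positions to GENCODE M21. The fit was tested on simulated data. Alternatives were other scalings, pseudocounts and filters, fewer libraries and a replicate block.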

Additional observations from a re-analysis of the deposited data

Results flagged for a closer look

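Within a group of 4 libraries, a library stood far from the other 3 for 22 of 394 combinations of gene and group (5.58%), each with a gap to its nearest neighbour that took up most of the group's range. For normally distributed values chance gives such a gap in about 1 group in 20, but RPKM need not be so distributed. Where the other 3 libraries were at 0, the gap took up the whole range by construction. Of the 22, 6 fell on heart library 2, 6 on pericardial library 5, 3 each on pericardial library 3 and heart library 4, 2 on heart library 5, 1 each on pericardial library 2 and heart library 3, and none on pericardial library 4.

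Heart library 2 was the high one for 6 genes, 4 of which encode matrix or secreted proteins typical of connective tissue cells. It held 146 RPKM of decorin, Dcn, against 34.7 to 49.9 in the other heart libraries, 407 RPKM of gelsolin, Gsn, against 113 to 146, 50.8 RPKM of Igfbp7 against 10.5 to 17, and 25.8 RPKM of the complement inhibitor Serping1 against 7.35 to 7.93. It also held 17.3 RPKM of the collagen chaperone Serpinh1 against 3.79 to 5.9 and 5.06 RPKM of the scavenging chemokine receptor Ackr3 against 0.398 to 1.11.

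Heart library 4 was high for the activation marker Cd83, at 376 RPKM against 139 to 147, for the factor Egr2, at 100 against 59.2 to 62.8, and for Sema6d, at 8.31 against 5.21 to 5.72. Heart library 5 was high for 2 mitochondrial genes, Mrpl33, at 61.3 RPKM against 28.5 to 33.1, and Prdx5, at 83.1 against 50 to 53.2. Heart library 3 was low for the heat shock gene Hspa1a, at 1614 RPKM against 1892 to 1929.6.

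Pericardial library 5 was low for 4 genes: Axl, at 3.73 RPKM against 5.7 to 5.82, Hspa4, at 31 against 36.7 to 37.8, Pdia6, at 179 against 245 to 255, and Rab32, at 69.5 against 101 to 105. Low levels stood apart there as well, with 0.21 RPKM of Slc14a1 against 0.13 to 0.139 and 0.0192 RPKM of Slco2b1 against 0. Pericardial library 3 held 7.89 RPKM of Il15ra against 5.58 to 5.9, and traces of Ccl12 (0.0742 RPKM) and of the ventricular myosin light chain Myl2 (0.03 RPKM) against 0. Pericardial library 2 held a trace of myoglobin, Mb, at 0.023 RPKM against 0.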

How the results depend on the processing

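Of 197 genes named and tested, 193 were called on the deposited scale. All but 5 of these kept direction and call under each of the 18 alternatives that tested them. The filter of 1 RPKM or more in all 8 libraries left out genes such as Gata6 and Fosb, which were thus not checked there. The 5 lost the call under at least 1 (5 at equal RPKM totals, 1 with median-ratio scaling, 1 with quantile normalization, 1 without heart libraries 2 and 3 and pericardial library 5), and none changed sign. Counts over all genes moved most with the scaling. Genes called higher, 5928 as deposited, were 2648 at equal RPKM totals. Genes called lower, 1629 as deposited, were 2795 with median-ratio scaling, 2798 with quantile normalization, 4027 at equal RPKM totals, 3426 with every gene above 0 RPKM tested and 975 with an RPKM of 1 or more required in all 8 libraries. That last filter, which tests fewer genes, left 133 strong rises (272 as reported) and 150 strong falls (463 as reported), with 41 (67) and 78 (152) list members. Of 1116 counts of list members, 91 moved by over 1.5 times, 51 of them under a scaling and 11 with 1 library left out.

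The 4 genes that were not called turned sign under some alternatives. The log2 fold of Cd68, 0.04 as deposited, was -0.32 with median-ratio scaling, -0.42 with quantile normalization and -0.60 at equal RPKM totals, was -0.14 without the 3 libraries named above, and ran from -0.07 to 0.15 with 1 library left out. That of Klf2, 0.00, was -0.36, -0.84 and -0.63 under the same scalings and -0.16 without the 3, and ran from -0.13 to 0.15. That of Hgf, 0.18, was -0.11 with median-ratio scaling and -0.32 at equal RPKM totals. That of Vsig4, -0.08, ran from -0.20 to 0.09 with 1 library left out, but was -0.44, -0.66 and -0.71 under the same scalings and -0.33 without the 3, and it passed the test with quantile normalization and at equal RPKM totals. The cause was not tested. For summed markers of other cells, the mast cell difference lost its call at equal RPKM totals (exact permutation p = 0.257), and with 1 library left out all 9 lists that had passed were at 0.0571, the smallest p that 3 libraries against 4 allow.

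The deviations of same-numbered pericardial and heart libraries correlated at -0.08, -0.36, 0.35 and -0.56 for numbers 2 to 5. Those of differently numbered libraries ran from -0.5 to 0.54. Such correlations cannot show whether equal numbers mark a shared animal or day, which the labels do not say. A replicate block gave 5686 genes higher and 1585 lower, with 272 strong rises and 463 strong falls. An alternative chosen after seeing the data, without heart libraries 2 and 3 and pericardial library 5, gave 4722 higher and 1504 lower, with 313 and 484 strong. RPKM carry no read count per gene, so the depth behind a single value is unknown.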

Other observations

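Guidance molecules, which steer axons and vessels and act at contacts between cells, were tested for 19 of 36 members listed: 4 rose, 2 strongly, and 9 fell, 4 strongly. The strong rises were a ligand and a receptor of the ephrin system, Efnb2, at 44.1, 37, 45.3 and 31.8 RPKM in pericardial libraries 2 to 5 against 0.577, 0.432, 0.396 and 0.273 RPKM in heart libraries 2 to 5 (5.44 ± 0.18), and Epha2, at 43.1, 50.2, 51 and 40.4 against 1.43, 2.01, 2.11 and 1.3 RPKM (4.41 ± 0.19). The groups did not overlap for either. The semaphorins of largest fall were Sema6d, at 0.82, 0.495, 0.65 and 0.498 against 5.45, 5.72, 8.31 and 5.21 RPKM (-2.57 ± 0.15), Sema4d (-2.09 ± 0.15) and Sema4a (-2.05 ± 0.19). Interferon-inducible and immunity-associated GTPases of the Gbp and Gimap families rose for 5 of 12 tested and fell for none. Gbp2b was at 46.7, 61.9, 60.5 and 46.2 against 0.67, 5.23, 0.737 and 2.08 RPKM (4.64 ± 0.40), with heart libraries 3 and 5 above the other 2, and Gimap9 (2.07 ± 0.23) and Gimap3 (2.04 ± 0.29) rose as well.

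Of 40 Rab GTPases of vesicle traffic tested, 10 rose, 3 strongly, and 4 fell. These shares are near the 24.2% and 14.6% of all genes. Rab27a, known for the release of secretory granules, was at 63.3, 52.5, 65.2 and 55 against 2, 1.7, 1.51 and 1.31 RPKM (4.81 ± 0.16). Rab32, known for lysosome-related organelles, was at 104, 105, 101 and 69.5 against 10.2, 12.7, 17 and 17 RPKM (2.70 ± 0.20), and Rab19 rose by 2.58 ± 0.16. Rab34 (-1.81 ± 0.17) and Rab20 (-1.04 ± 0.28) fell. The direction of the family as a whole turned with the scaling, as 20 were called higher and 4 lower as deposited but 10 higher and 19 lower at equal RPKM totals. Long noncoding RNAs were tested for 13 members, of which 1 rose and 4 fell. Malat1, a nuclear RNA, was at 41.5, 42.8, 22 and 60 against 136, 109, 208 and 406 RPKM (-2.25 ± 0.31), with heart library 5 highest. Neat1, which builds nuclear paraspeckles, was at 18.7, 13.2, 17.2 and 26.7 against 7.42, 8.23, 11.3 and 9.01 RPKM (1.01 ± 0.19), a call that did not hold under all scalings.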
